A study of Mus musculus with 4 samples.

Results

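The genes Rmst, 1500015O10Rik, Plscr2, Mia, Cnmd, Podxl, Plet1, Slc34a2 and Bcam are 9 of the 31053 genes counted, each with 1 row in the count tables of 4 single-cell RNA libraries of mouse testis. They were selected on their UMI counts, for high levels in cells of the rete testis (RT), the epithelial network that collects sperm and fluid from the seminiferous tubules, over Sertoli cells, the somatic cells of the tubules. The RT-over-Sertoli difference is therefore how they were chosen, and it is given here as a description with no test. All animals were C57BL/6 at postnatal day 14, and each library pooled the testes of 3 pups. The 2 control libraries carried SF1Cre, a Cre recombinase driven by the promoter of Nr5a1 in the gonadal somatic lineage, and the 2 Sox17-cKO libraries carried SF1Cre:Sox17flox/flox, so the labels give the same Cre in both groups, whereas the study's methods describe the controls as floxed animals without Cre. Sox17 encodes a transcription factor of the SOX family.

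The libraries held 9388 to 13364 barcodes and 89969877 to 107203219 UMIs (unique molecular identifiers, each standing for 1 counted RNA molecule), although 5000 cells were targeted per library. Clustering of the 22567 barcodes with 1000 to 4500 detected genes, made without these 9 genes and Sox17 among the variable genes, gave 1 cluster of 225 cells that carried the RT markers and is called RT-like here. The libraries contributed 36, 73, 30 and 86 of these cells, given here as throughout with the controls numbered 1 and 2 before the Sox17-cKO libraries numbered 1 and 2, with a median of 7806 UMIs per cell, and no barcode sequence was shared between libraries among these cells. The cluster was named from a marker list that holds Pax8, Cdh1, Krt8, Krt18, Krt19 and Epcam. Their levels describe the cluster and are no independent check of its label. Pax8 stood at 222 to 428 UMIs per 1000000 (CPM) over the 4 libraries, Cdh1 at 113 to 163 CPM and Krt18 at 64.3 to 85.4 CPM, while Krt19, a further keratin, was near absent at 3.46 to 10.5 CPM. Epcam, an epithelial adhesion molecule, was at 22.7 and 67.5 CPM in the controls and at 141 and 170 CPM in the Sox17-cKO libraries, and Krt8, a keratin of simple epithelia, was at 94.6 and 113 CPM against 141 and 185 CPM. The groups overlapped for neither, neither passed edgeR's test (adjusted p = 0.376 for Epcam and 0.904 for Krt8), and the part of these markers in the results was not tested. Amh, which defines immature Sertoli cells, had no UMI. Markers listed for other cell types were also counted. The summed level of 12 Sertoli markers was 2706 to 3778 CPM, of which Clu made 1196 to 1895 CPM and Aard 402 to 813 CPM. Sox9 stood at 321 to 537 CPM, Wt1 at 230 to 492 CPM and Gata4 at 55.5 to 99.3 CPM. The study names Sox9, Wt1 and Gata4 as markers common to RT and Sertoli cells, so the sum is not specific to Sertoli cells. The 8 germ cell markers summed to 318 and 363 CPM in the libraries numbered 1 and to 79.6 and 173 CPM in those numbered 2. The 14 interstitial markers summed to 253 and 376 CPM in the former and to 703 and 581 CPM in the latter. The source of these UMIs and their part in the results were not tested. Of 6 efferent duct markers, Mcidas, Lrp2 and Slc9a3 had no UMI, Cubn had 2 UMIs in all, Aqp1 was at 0 to 59.8 CPM, and Foxj1, a ciliogenesis factor, was at 64.1 to 148 CPM. Of 6 endothelial markers, Kdr stood at 492 and 467 CPM in the controls and at 380 and 278 CPM in the Sox17-cKO libraries, and the other 5 at 0 to 7.56 CPM.

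The RT is a cuboidal epithelium that descends from the somatic cells of the early gonad and keeps some transcription factors in common with Sertoli cells, while it also makes keratins, E-cadherin and the tubule factor PAX8. The 9 genes code for products of different kinds. Secreted proteins are made from 1500015O10Rik (named Ecrg4 in RefSeq, the precursor of augurin), Mia (melanoma inhibitory activity, a small cartilage protein) and Cnmd (chondromodulin, a cartilage glycoprotein known to restrain blood vessel growth). Proteins of the cell surface are Podxl (podocalyxin, a sialomucin of podocytes and endothelium), Plet1 (a glycolipid-anchored protein of placenta and epithelial progenitors) and Bcam (the Lutheran glycoprotein, a receptor for laminin). Slc34a2 is a sodium-dependent phosphate transporter of apical membranes, Plscr2 belongs to the phospholipid scramblases, and Rmst is a long noncoding RNA.

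The genes lie on 7 chromosomes in GRCm38, at chr10:92071037-92165170 (Rmst, minus strand), chr1:43730602-43742578 (1500015O10Rik, plus), chr9:92275602-92297752 (Plscr2, plus), chr7:27179742-27181157 (Mia, minus), chr14:79637690-79662170 (Cnmd, minus), chr6:31519488-31563981 (Podxl, minus), chr9:50494525-50505482 (Plet1, plus), chr5:53038081-53071664 (Slc34a2, plus) and chr7:19756131-19771016 (Bcam, minus). Mia is overlapped on the same strand by the read-through gene Gm21983, which had no UMI in RT-like cells. The antisense genes Gm29155, at the 3′ end of 1500015O10Rik, and Plet1os, at Plet1, had 0 and 1 UMI there. Counted genes on the opposite strand also overlap Rmst (Gm26700), Slc34a2 (Gm17182) and Bcam (Gm26600), and their levels are not given here.

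RefSeq promoter sequences, 250 bases before to 50 bases after the annotated start, were matched for 6 of the 9 genes: 1500015O10Rik, Mia, Cnmd, Plet1, Slc34a2 and Bcam. The SOX core motif ACAAT, read on both strands as ACAAT or ATTGT, was found in none of the 6 and in 31.0% of all 32851 promoters of this length. The letters TATAAA (or TTTATA on the other strand) occurred in 1 of the 6, that of Plet1, beginning 30 bases before the start, and in 13.6% of all promoters. The number of CG dinucleotides spread widely, from 1 for Cnmd through 5 for 1500015O10Rik, 5 for Plet1 and 6 for Mia to 27 for Bcam and 30 for Slc34a2, beside a median of 7 over all promoters. The window of Slc34a2, at chr5:53049103-53049402, lies inside the gene as placed above and not at its first base. The sequences of Cnmd, Plet1 and Bcam are shown because they hold a low, a middle and a high number of CG, and that of Plet1 holds the TATA box. Capitals mark CG dinucleotides and the TATA box, and each runs 5′ to 3′ on the strand of its gene, at chr14:79662134-79662433 (Cnmd, minus), chr9:50494275-50494574 (Plet1, plus) and chr7:19770483-19770782 (Bcam, minus) of GRCm38.p6.
Cnmd: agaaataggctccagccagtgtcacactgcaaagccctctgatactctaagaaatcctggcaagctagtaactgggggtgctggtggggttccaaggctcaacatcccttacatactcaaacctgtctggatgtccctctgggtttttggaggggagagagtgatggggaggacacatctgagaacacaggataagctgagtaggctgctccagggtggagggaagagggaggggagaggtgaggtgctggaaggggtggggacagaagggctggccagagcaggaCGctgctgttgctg
Plet1: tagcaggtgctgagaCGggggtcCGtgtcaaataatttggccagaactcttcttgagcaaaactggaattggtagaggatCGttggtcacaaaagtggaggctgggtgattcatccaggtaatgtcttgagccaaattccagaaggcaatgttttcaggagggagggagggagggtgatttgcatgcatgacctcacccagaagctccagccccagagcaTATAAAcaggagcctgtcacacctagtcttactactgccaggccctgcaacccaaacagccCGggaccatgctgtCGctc
Bcam: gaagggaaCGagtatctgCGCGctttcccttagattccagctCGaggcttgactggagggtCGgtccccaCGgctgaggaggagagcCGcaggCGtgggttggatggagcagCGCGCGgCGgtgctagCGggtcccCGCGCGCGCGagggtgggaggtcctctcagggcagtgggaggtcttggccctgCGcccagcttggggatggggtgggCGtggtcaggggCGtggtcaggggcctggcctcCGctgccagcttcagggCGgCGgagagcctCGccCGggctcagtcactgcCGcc
The Bcam window is dense with CG and the Cnmd window has a lone CG near its end.

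The level of each gene was compared over all cell classes. In RT-like cells the highest level was that of 1500015O10Rik, at 2753, 2481, 3884 and 2954 CPM in the libraries in that order, which made 3018 ± 609 CPM (SD, n = 4). Rmst followed with 1104, 1286, 781 and 874 CPM, or 1011 ± 228 CPM. The ranges of these 2 over the libraries overlapped neither each other nor those of the remaining genes. The other 7 had means between 189 CPM (Plet1) and 428 CPM (Bcam), and most of their ranges overlapped, except that Plscr2 (308 to 470 CPM) stayed above Plet1 (148 to 223 CPM) and Slc34a2 (94.6 to 299 CPM). Each molecule is counted once at its 3′ end, so this is an order of counted molecules on the CPM scale and it was not scaled by RNA length.

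Rmst, Mia, Cnmd, Plet1 and Slc34a2 had means of at most 4.63 CPM in the other 7 classes. UMIs were still found there, such as 107 of Rmst in germ-like cells (1.73 ± 0.379 CPM) and 80 of Cnmd in interstitial-like cells. By cluster Rmst reached 9.60 ± 7.12 CPM in a germ-like cluster of 960 cells with a median of 40.2% mitochondrial UMIs. Rmst, at 1011 ± 228 CPM in RT-like cells, had its next highest class mean in endothelial-like cells, 2.79 ± 3.22 CPM from 2 UMIs. Plet1, at 189 ± 31.9 CPM, was next among these classes in macrophage-like cells with 0.594 ± 0.693 CPM, also from 2 UMIs. Slc34a2, at 205 ± 85.2 CPM, was next in Sertoli-like cells of the Sertoli valve (SV), the end segment of the tubule that opens into the RT, with 3 UMIs in all and none in either Sox17-cKO library. Where the next class had more counts a fold can be given: Cnmd, at 231 ± 95.2 CPM, stood 125-fold above interstitial-like cells at 1.85 ± 0.602 CPM, and Mia, at 316 ± 280 CPM, stood 68.3-fold above Leydig-like cells at 4.63 ± 4.86 CPM. In each of the 4 libraries the RT-like level of these 5 genes lay above that of each other class, and the order among the other classes mostly rested on ranges that overlapped. RT-like cells, 225 of the 22567 retained, held 89.8% of the UMIs of Rmst, 89.0% of those of Mia, 88.9% for Plet1, 86.3% for Slc34a2 and 76.5% for Cnmd.

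1500015O10Rik and Plscr2 were also present in stroma. 1500015O10Rik stood at 80.9 ± 27.5 CPM in interstitial-like cells, 37.3-fold below the RT, and this came mainly from a cluster of 2881 cells led by Col1a1, Angptl7, Col1a2 and Col3a1, where it was at 161 CPM on average (122 to 209 CPM) and 49.0% of cells had a UMI. It was also at 75.0 ± 34.3 CPM in a small interstitial-like cluster of 191 cells led by Lockd and Pclaf. In the interstitial-like cluster led by Tnnt2 and Cyp26b1 2.18% of 2156 cells had one. Plscr2 was spread over more of the stroma, with 53.4 ± 33.0 CPM in the Lockd cluster, 47.4 CPM in the Col1a1 cluster, 38.7 CPM in the Tnnt2 cluster and 39.7 ± 27.7 CPM in endothelial-like cells, the last 9.36-fold below its 371 ± 75.1 CPM in RT-like cells. RT-like cells held 56.8% of the 1500015O10Rik UMIs of retained cells and 24.0% of those of Plscr2, whose UMIs lay mostly (1786 of 2505) in the 7188 interstitial-like cells.

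For Podxl and Bcam the ranges over libraries in RT-like and endothelial-like cells overlapped. Podxl was at 427, 480, 141 and 230 CPM in RT-like cells and at 207 ± 41.0 CPM (163 to 262 CPM) in 71 endothelial-like cells. Within libraries the RT-like level was above the endothelial-like one in both controls (427 against 262 CPM and 480 against 205 CPM) and in Sox17-cKO 2 (230 against 163 CPM) and below it in Sox17-cKO 1 (141 against 197 CPM), so the overlap came from the Sox17-cKO libraries. Bcam was at 219, 495, 282 and 716 CPM in RT-like cells, at 170 ± 129 CPM (31.1 to 342 CPM) in endothelial-like cells, with the RT-like level higher in each of the 4 libraries (138, 166, 31.1 and 342 CPM in endothelial-like cells, in order). It was at 288 ± 34.1 CPM in a cluster of 297 cells led by Rgs5 and Notch3, genes of pericytes, so that the 2 lower RT-like libraries lay inside or below the range of that cluster, 254 to 321 CPM. Both genes were also high in 17 cells with 3 or more of 5 mesothelial markers, a threshold set after seeing the data, at 208 ± 95.4 CPM for Podxl and 344 ± 175 CPM for Bcam, cells in which 1500015O10Rik stood at 310 ± 96.2 CPM, Plscr2 at 104 ± 81.3 CPM and Plet1 at 34.2 ± 49.1 CPM (4 UMIs, in 4 of the 17 cells), and in which Rmst, Mia, Cnmd and Slc34a2 had no UMI. RT-like cells held 54.2% of the Podxl UMIs and 28.3% of the Bcam UMIs of retained cells.

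Against Sertoli-like cells, the contrast that chose the genes, all 9 were far higher in the RT. Over all libraries pooled the fold ran from 146 for Bcam, which had 3.48 CPM from 124 UMIs in SV and tubule Sertoli-like cells together, to 1409 for Plet1, which had 5 UMIs in those cells. Among the SV Sertoli-like population, the neighbours of the RT, Bcam stood at 28.6 ± 17.0 CPM and the other 8 genes averaged 0 (Plet1) to 5.81 CPM (Plscr2).

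**Figure D1:**
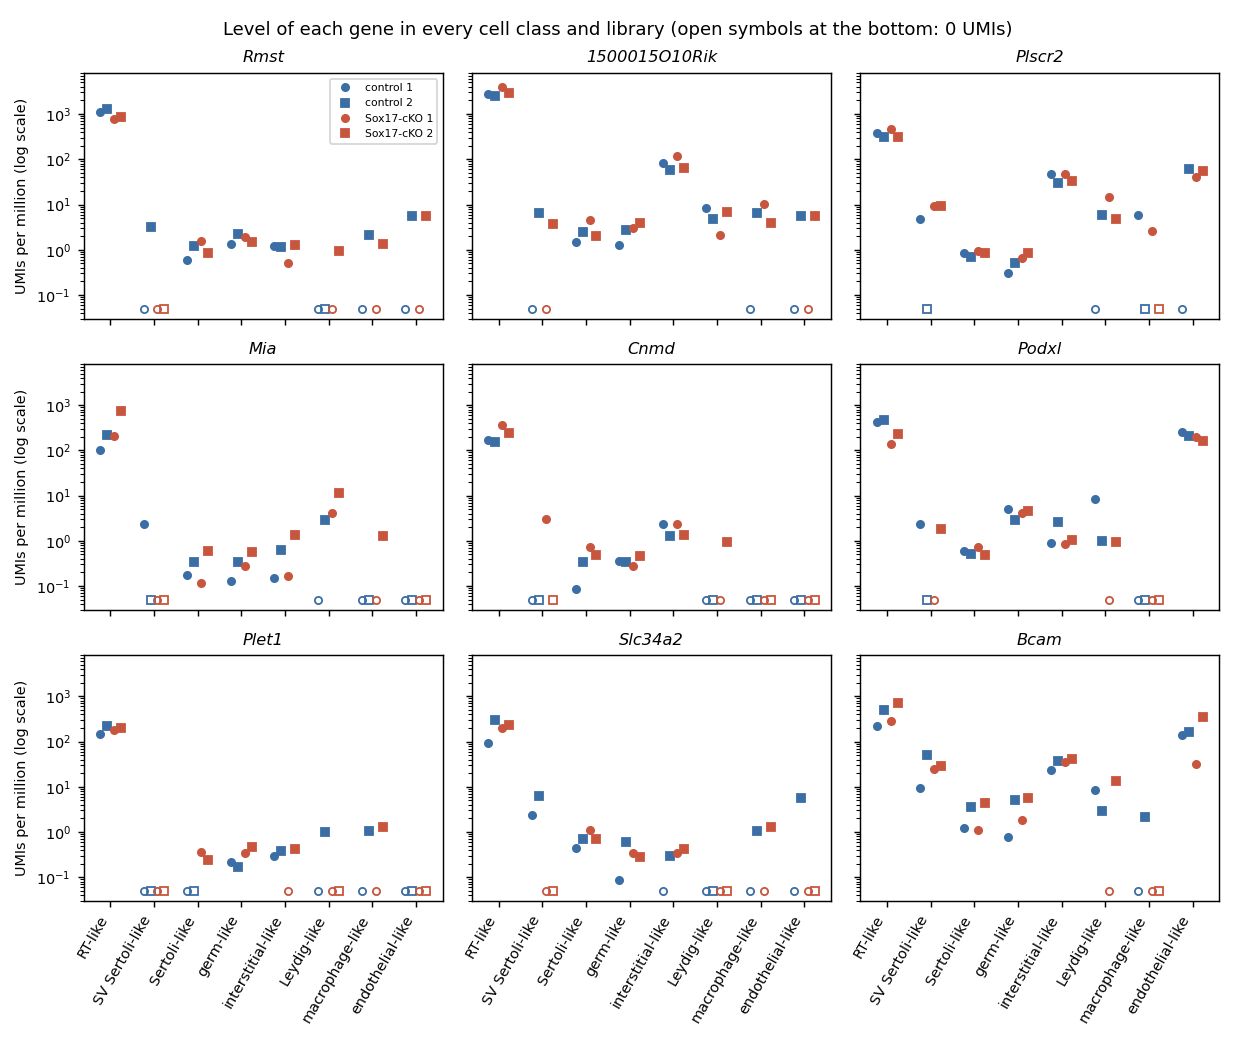
Level in CPM (log scale) of each of the 9 genes in 8 cell classes, 1 point per library, with open symbols at the bottom for libraries with no UMI. Rmst, Mia, Cnmd, Plet1 and Slc34a2 have means of 0 to 4.63 CPM in the other 7 classes, while Podxl and Bcam reach 207 and 170 CPM on average in endothelial-like cells.

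Detection in single cells was compared after each cell was thinned to 2000 UMIs, which left out 7 RT-like cells and kept 218. At that depth 1500015O10Rik was found in 91.4%, 94.4%, 92.9% and 83.3% of RT-like cells in the libraries in order, a mean of 90.5% ± 4.92 (SD, n = 4). Rmst was found in 80.0%, 77.5%, 60.7% and 69.0% of them. Podxl, Bcam and Plscr2 were each found in close to 1 cell of 2, at 48.6% ± 9.35, 48.6% ± 20.5 and 48.4% ± 15.0, and Cnmd (31.5% ± 11.9), Mia (30.2% ± 18.5), Plet1 (28.5% ± 7.08) and Slc34a2 (25.3% ± 7.33) were found in fewer. In germ-like cells, taken as the background and with a median of 7239 UMIs before thinning, no gene passed 1.16% in any library. For Podxl these cells may not be pure background. A germ-like cluster of 724 cells led by Egr4, Trim71 and Sall4 had it at 8.69 ± 2.85 CPM, with a UMI in 9.25% of unthinned cells. Another, of 960 cells with a median of 40.2% mitochondrial UMIs, had it at 19.4 ± 9.43 CPM, with a UMI in 5.31%. In Sertoli-like cells Podxl was found in 0.112% of 5348 thinned cells. All 9 shares in RT-like cells lay above those in both classes. Shares above the germ-like background were also found in interstitial-like cells for 1500015O10Rik (9.95% of 7149 thinned cells), Plscr2 (6.04%) and Bcam (5.89%). In endothelial-like cells they were found for Podxl (25.4% of 71) and Bcam (22.5%). Without thinning Plscr2 also had a UMI in 16 of the 71 endothelial-like cells. With 28 to 84 thinned cells per library the 95% Clopper-Pearson interval of a share was wide, for example 63.1% to 91.6% for Rmst in control 1, and it covers counting error only. Without thinning the mean shares rose to between 54.3% (Slc34a2) and 94.4% (1500015O10Rik).

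**Figure D2:**
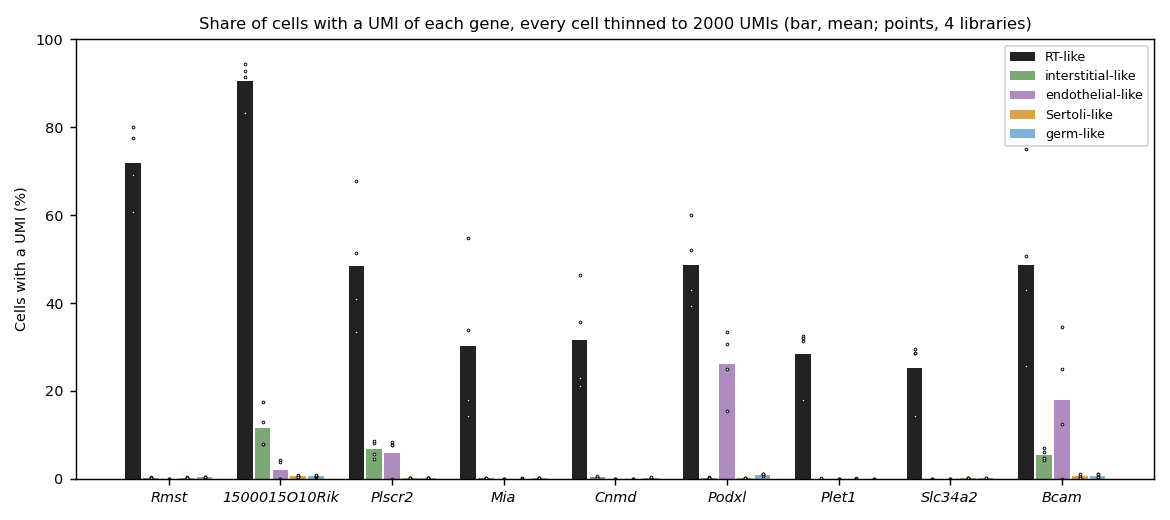
Share of cells with a UMI of each gene (y axis, percent) in 5 cell classes after thinning each cell to 2000 UMIs, with bars for the mean and points for the 4 libraries. 1500015O10Rik reaches 90.5% of RT-like cells and Slc34a2 25.3%, and in germ-like cells every point is at or below 1.16%.

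The genes were found together in the same cells. Without thinning, RT-like cells had UMIs of a median of 7 of the 9 genes (range 1 to 9), 42 of the 225 had all 9, and 186, or 82.7%, had 5 or more. Outside the cluster 0 of the other 22342 retained cells had 5 or more, and 123 had 3 or more, of which 105 were interstitial-like and 10 endothelial-like. The median was 7, 7, 7 and 8 in the libraries in order. No cell in the cluster lacked all 9. With each cell thinned to 2000 UMIs the median was 4 genes, 106 of 218 cells (48.6%) had 5 or more, and 1 had all 9. Among RT-like cells, over the 36 pairs, the Spearman rho of log-normalised levels, averaged over the 4 libraries, had a median of 0.10 and ran from -0.13 (Rmst with Mia) to 0.37 (1500015O10Rik with Mia). Of the 333 barcodes above 4500 detected genes described next, 32 had none of the 9 genes, so that set is mixed. There the same measure had a median of 0.65 and ran from 0.54 to 0.76, and the part of the mixture was not tested. These are correlations across cells of shared libraries in sparse counts, and they are given as a description.

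**Figure D3:**
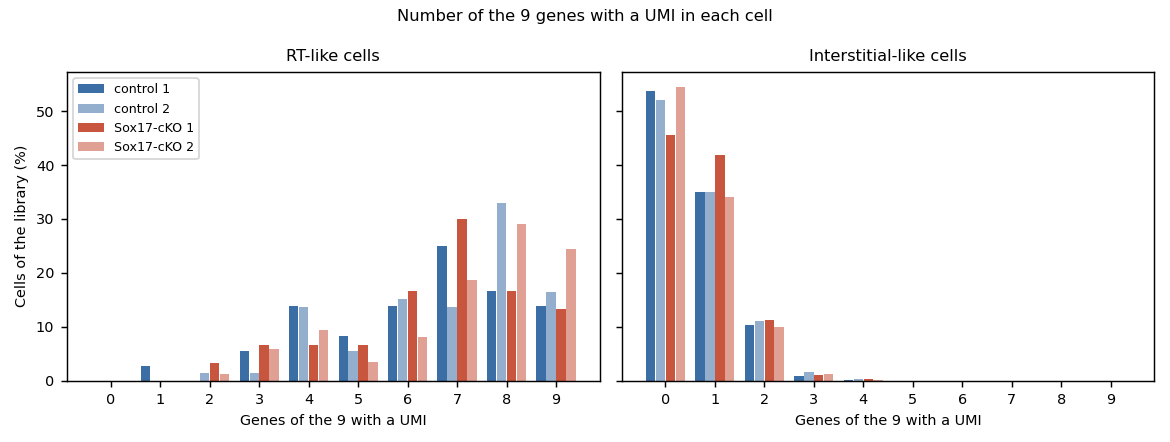
Percent of the cells of each library (y axis) by the number of the 9 genes with a UMI (x axis), for RT-like cells at left and interstitial-like cells at right. The median RT-like cell has 7 or 8 genes in each of the 4 libraries, while interstitial-like cells have 4 at most.

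Barcodes above 4500 detected genes, which the clustering left out, hold the same genes in barcodes that played no part in defining the cluster. Of 7828 such barcodes, 333 had a UMI of Pax8 and of Krt8, Krt18 or Cdh1 (43, 155, 18 and 117 by library), with a median of 38612 UMIs. The 8 germ markers summed to 646 to 1383 CPM in these barcodes, above their sum in the RT-like cluster, so barcodes that hold more than 1 cell may be among them. All 9 genes were high there. 1500015O10Rik stood at 1572, 1855, 2381 and 2405 CPM and Rmst at 480, 664, 392 and 492 CPM. In the other 7495 barcodes above 4500 genes no member exceeded 12.8 CPM in any library. Of the gated barcodes 262, or 78.7%, had 5 or more of the 9 genes, and of the others 13, or 0.173%, did. As the gated barcodes come from the same 4 libraries, they add cells and not animals.

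The 10 genes whose pattern was most like that of the 9 were Gm43154, Pax8, Fermt1, Ddo, Bmpr1b, Eddm3b, Emx2, Barx2, Gm11728 and Mal2, by the Pearson correlation with the mean of the 9 scaled levels over the 32 sums of a class in a library, among 5738 genes with 50 or more UMIs in RT-like cells. Their r ran from 0.966 to 0.972. The list holds transcription factors of the urogenital tract (Pax8, Emx2), another homeobox factor (Barx2), a BMP receptor (Bmpr1b), and an adaptor of integrins in epithelia (Fermt1). Pax8, at 344 ± 97.5 CPM, was the highest of the 10 in RT-like cells and Gm11728, at 31.9 ± 7.30 CPM, the lowest. Within the 9, Rmst and Plet1 were closest to the mean of the remaining 8 (r = 0.972 and 0.966), and Podxl and Bcam were farthest from it (0.734 and 0.801).

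The dependence on Sox17 was asked by comparing the genotypes within RT-like cells. The rule that chose the genes did not compare genotypes. It did use RT levels from all 4 libraries, and earlier results of these data were known, so this contrast may not be independent of the choice. Sox17 itself was at 356 and 312 CPM in the controls and at 47.0 and 34.6 CPM in the Sox17-cKO libraries. The controls lay above both Sox17-cKO libraries, and the log2 fold change was -3.12 (SE 0.338, edgeR's quasi-likelihood test, adjusted p = 0.0228). A UMI of Sox17 remained in 9 of 30 and 20 of 86 RT-like cells of the Sox17-cKO libraries, against 26 of 36 and 39 of 73 in the controls. Of 6774 genes tested in RT-like cells, 4 passed an adjusted p of 0.05, which is 0.059%, and all 4 were lower: Sox17, Mme, Ap3b2 and BC048679. None of the 9 was among them, a share of 0 beside that background. The call depends on the design: with the library number, which goes with the Cell Ranger version, as a block, a fit that leaves 1 residual degree of freedom, 267 genes or 3.94% passed in edgeR's test, and so did Podxl (adjusted p = 1.13e-06), Mia (8.19e-08) and Cnmd (0.0105). At an unadjusted p of 0.05, 398 genes or 5.88% passed, and 3 of the 9 did: Podxl, Cnmd and Mia. With 2 pools per genotype these p-values rest on the spread between 2 pools, which edgeR moderates with the spread of all genes tested. In simulated data of this size the test called 76.5% of genes changed 4-fold and 11.2% of those changed 2-fold.

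Podxl had the lowest log2 fold change among the 9. Its 427 and 480 CPM in the controls stood against 141 and 230 CPM in the Sox17-cKO libraries, and the groups did not overlap. The log2 fold change was -1.29 (SE 0.317, 95% interval -2.02 to -0.57, unadjusted p = 0.00308), and it missed the threshold over all genes tested in edgeR's test (adjusted p = 0.324). The log2 ratio was -1.60 between the libraries numbered 1 and -1.06 between those numbered 2, which had been counted with different versions of Cell Ranger. In the gated barcodes above 4500 genes Podxl was at 360, 472, 114 and 201 CPM, again with no overlap. Among the 6 endothelial markers Kdr made nearly all of the UMIs in RT-like cells, and Kdr was also lower. It stood at 492 and 467 CPM in the controls and at 380 and 278 CPM in Sox17-cKO. The sum of the 6 was 511 and 469 CPM against 384 and 281 CPM. In the gated barcodes that sum was 305 and 421 against 149 and 188 CPM. Tek had no UMI and Pecam1 and Cldn5 had 1 each in RT-like cells, and the part of these markers in the result was not tested. Among 15 alternatives the log2 fold change stayed between -1.72 and -1.03 and edgeR or DESeq2 gave adjusted p-values from 1.13e-06, with the block, to 0.712. Podxl passed without a filter on low counts (adjusted p = 0.0493 in edgeR's test). In the endothelial-like cells, the other class with high Podxl, it was at 262, 205, 197 and 163 CPM, with a log2 fold change of -0.37 (SE 0.418, adjusted p = 1.0 in edgeR's test), and whether the 2 classes differ in this was not tested. Sox17 was also lower in these cells, at 508 and 344 CPM in the controls and at 93.3 and 101 CPM in Sox17-cKO. Its log2 fold change was -2.10 (SE 0.431, adjusted p = 0.479 in edgeR's test). The cells numbered 8, 24, 13 and 26 by library, and 5, 12, 4 and 10 of them had a UMI of Sox17. From in situ hybridization at a later age, the study reports Sox17 as conserved in the vessels of Sox17-cKO testes. In interstitial-like cells, where Podxl was at 0.899, 2.65, 0.838 and 1.07 CPM with control 2 apart, its log2 fold change was -1.01 (SE 0.677, adjusted p = 1.0 in edgeR's test), and it ran from -1.52 to -0.86 over 6 alternatives. The 17 cells with mesothelial markers, 2, 9, 3 and 3 by library, held 38 Podxl UMIs, beside 84 in interstitial-like cells. The mesothelial marker Upk3b had 244 UMIs in these 17 cells and 254 in interstitial-like cells. Their part in this difference was not tested.

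Cnmd was higher in both Sox17-cKO libraries. It stood at 166 and 151 CPM in the controls and at 359 and 248 CPM in Sox17-cKO, without overlap, with a log2 fold change of 0.89 (SE 0.312, 95% interval 0.18 to 1.60, unadjusted p = 0.0200, adjusted p = 0.673 in edgeR's test). The log2 ratio was 1.11 within number 1 and 0.72 within number 2. In the gated barcodes above 4500 genes it was at 125, 149, 209 and 242 CPM, in the same order of groups. Over the alternatives the log2 fold change ran from 0.61 to 1.15, with adjusted p from 0.0105, with the block, to 1.0 by edgeR or DESeq2.

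Mia differed widely between libraries of the same genotype. It was at 102 and 222 CPM in the controls and at 213 and 728 CPM in Sox17-cKO, so the lower Sox17-cKO library lay inside the control range and Sox17-cKO 2 was highest. The log2 ratio was 1.06 between the libraries numbered 1 and 1.72 between those numbered 2, and 1.25 and 1.83 in the gated barcodes above 4500 genes, the same direction in each pair. The log2 fold change was 1.50 (SE 0.552, 95% interval 0.24 to 2.76, adjusted p = 0.720 in edgeR's test). Without Sox17-cKO 2 it was 0.31 (adjusted p = 0.882), whereas without control 2 it was 2.20 (adjusted p = 0.0244), without Sox17-cKO 1 it was 2.08 (adjusted p = 2.22e-05) and without a filter on low counts it was 1.52 (adjusted p = 0.00516), each by edgeR's test. Over all genes tested 0.526%, 1.25% and 0.632% passed in those 3 fits. Over all 15 alternatives the adjusted p of Mia ran from 8.19e-08, with the block, to 0.999. In the gated barcodes above 4500 genes Mia was at 59.4, 185, 141 and 657 CPM, with Sox17-cKO 2 again highest. Outside RT-like cells the same library also led, with 1.39 CPM in the other barcodes above 4500 genes against 0.130, 0.621 and 0.178 CPM in the other 3 libraries in order.

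Rmst, 1500015O10Rik, Bcam, Plscr2, Slc34a2 and Plet1 had intervals that include 0. Rmst was lower, at 781 and 874 CPM against 1104 and 1286 CPM, with no overlap and a log2 fold change of -0.56 (95% interval -1.22 to 0.09). In the gated barcodes above 4500 genes, at 480 and 664 CPM in the controls and 392 and 492 CPM in Sox17-cKO, the groups overlapped. The log2 ratio of Rmst was -0.50 between the libraries numbered 1 and -0.56 between those numbered 2, and -0.29 and -0.43 in the gated barcodes. 1500015O10Rik was at 3884 and 2954 CPM against 2753 and 2481 CPM, again with no overlap, and its log2 fold change was 0.35 (95% interval -0.35 to 1.05). In all, 4 of the 9 genes had groups that did not overlap, 2 lower and 2 higher in Sox17-cKO, and of all 6774 genes tested 15.5% and 17.9% did so in those directions and 33.4% in either, so the share among the 9 was near that background. The median log2 fold change of the 9 was 0.09, beside 6.8e-05 over all genes tested.

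Bcam, with 716 CPM in Sox17-cKO 2 against 219 to 495 CPM in the other 3 libraries, had a log2 fold change of 0.45 (95% interval -0.65 to 1.56) that turned to -0.40 without that library. Slc34a2 ranged from 94.6 CPM in control 1 to 299 CPM in control 2 and had a log2 fold change of 0.04 (95% interval -0.98 to 1.06), which was -0.49 without control 1. Plscr2 (0.09, 95% interval -0.65 to 0.84) and Plet1 (0.0011, 95% interval -0.70 to 0.70) also had fold changes near 0, and their direction changed between alternatives, as did that of Slc34a2.

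**Figure D4:**
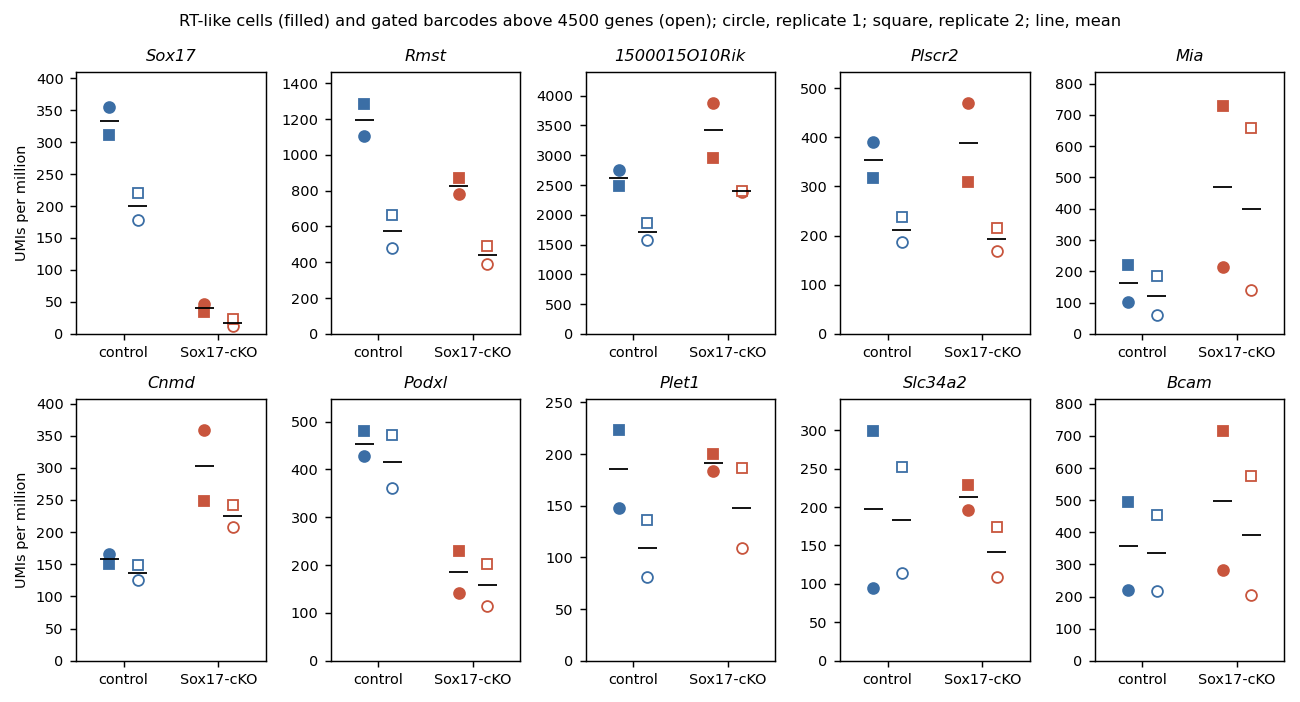
Level in CPM of Sox17 and the 9 genes (y axes from 0, scaled per gene) in RT-like cells (filled) and in gated barcodes above 4500 genes (open), with circles for libraries numbered 1, squares for those numbered 2 and lines for the mean. Sox17 and Podxl are lower and Cnmd and 1500015O10Rik higher in both Sox17-cKO libraries in both sets of cells.

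The share of RT-like cells with a UMI, at 2000 UMIs per cell, is a further measure of the genotype difference from the same cells. Thinning is random, and the spread over repeated draws was not tested. Podxl was found in 56.1% of cells on average in the controls and in 41.1% in Sox17-cKO, Rmst in 78.7% and 64.9%, and Cnmd in 22.0% and 41.1%, each without overlap between groups. These 3 of the 9 stand beside 33.7% of all 6774 genes tested, thinned in the same way, so the share among the 9 was near that background. The exact two-sided permutation test over the 4 libraries gave p = 0.33 for these 3, which is the smallest value that 2 libraries against 2 allow. For the other 6 genes the same exact permutation test gave p from 0.667 to 1.

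**Figure D5:**
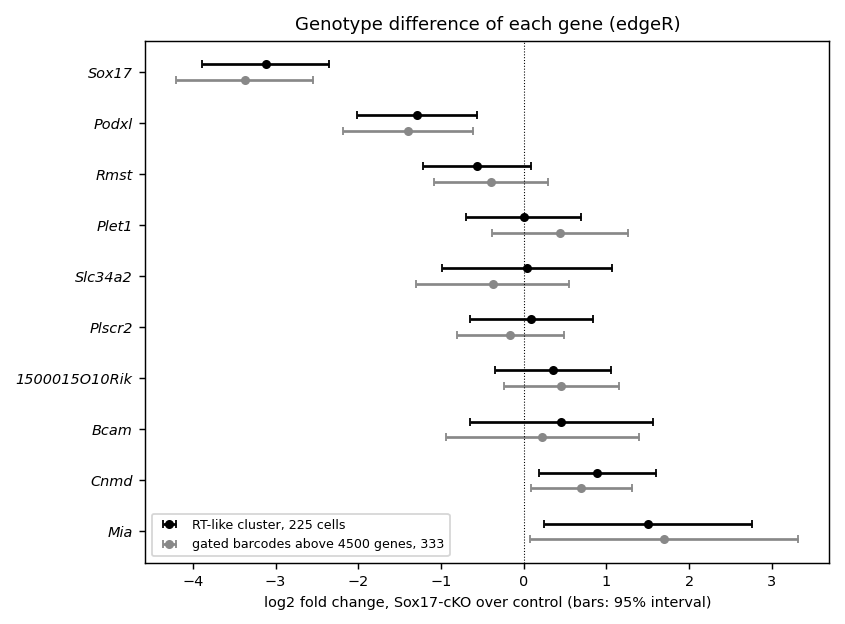
Log2 fold change of Sox17-cKO over control (x axis, bars for the 95% interval) of Sox17 and the 9 genes in the 225 RT-like cells (black) and the 333 gated barcodes above 4500 genes (grey), from edgeR. Podxl lies below 0 and Cnmd and Mia above it in both, and the intervals of the other 6 genes include 0.

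No relative of the 9 passed the test in RT-like cells. Of 18 relatives and partners of the 9 (other scramblases, phosphate transporters, Mia and Cnmd paralogs, podocalyxin partners, laminin alpha 5 and Sox2), 8 passed the filter on low counts and 0 were called, beside 0.059% of all genes, with a median log2 fold change of 0.15 beside 6.8e-05 over all genes tested. Those with most UMIs were Ezr, a linker of podocalyxin to the cytoskeleton, at 403 ± 73.6 CPM, Slc9a3r1 at 142 ± 66.3 CPM, Plscr1 at 93.5 ± 28.2 CPM, Lama5, which encodes the laminin chain bound by Bcam, at 81.8 ± 19.99 CPM, and Mia3 at 80.7 ± 15.6 CPM. The paralogs Slc34a1, Otor and Tnmd, and Sox2, had no UMI in RT-like cells, and Slc34a3 had 1. Of 12 epithelial genes 4 passed the filter, 0 were called (0.059% of all genes) and 1, Epcam, had an unadjusted p under 0.05 (5.88% of all genes), with a log2 fold change of 1.64 (SE 0.430, adjusted p = 0.376 in edgeR's test). Cldn3 (290 ± 141 CPM) and Epcam (100 ± 67.3 CPM) were the highest.

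In the other classes 0 genes passed the threshold in edgeR's test, among 12468 tested in all Sertoli-like cells (SV and tubule together), 5656 in those of the SV alone, 13727 in interstitial-like cells, 14400 in germ-like cells and 2725 in endothelial-like cells, beside 88, 100, 59, 24 and 89 genes at an unadjusted p of 0.05, which is 0.706%, 1.77%, 0.43%, 0.167% and 3.27%. DESeq2 called 0, 0, 1, 0 and 0 genes in them. Of the 9 genes 4, 1, 6, 5 and 2 were expressed enough to be tested, and none had an unadjusted p under 0.05. The fold changes of 1500015O10Rik and Plscr2 in interstitial-like cells, where both have a level of their own, were 0.30 (SE 0.342) and -0.03 (SE 0.290), and that of Bcam there was 0.23 (SE 0.302) on the log2 scale.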

How the data were processed

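UMI counts per gene and barcode were deposited by the authors as unnormalised 10x matrices, 1 per library, made with Cell Ranger on mm10 (per the file headers 6.0.2 for both libraries numbered 1 and 6.1.2 for both numbered 2). The labels name kit v3 and the methods v3.1. Of 31053 gene IDs, 31011 were in the GRCm38 annotation used for positions. Barcodes with 1000 to 4500 detected genes were kept; the study's limit of mitochondrial reads under 1% was not applied, as the median barcode had 6.94%. Cells were integrated and clustered in Seurat 5.3.0 (2000 variable genes, 20 components, resolution 0.4) and named from marker lists. Scrublet (Scanpy 1.11.5) was run to find doublets and called 8, 208, 0 and 330 barcodes and so did not work in 2 libraries; no barcode was removed by it, and leaving out the highest 10% of scores was an alternative. Among retained cells 45 barcode sequences occurred in more than 1 library.

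For each class, UMIs of a library were added up and tested two-sided with edgeR 4.0.16 (quasi-likelihood, TMM, filterByExpr, Benjamini-Hochberg, threshold 0.05), with DESeq2 1.42.0 as an alternative, in R 4.3.3. The scripts were tested on simulated data. Samples are separate pools of pups, and p-values rest on the spread between pools, which edgeR moderates with that of all genes tested. Intervals are 95% and, for shares, cover counting error only. The 9 genes, the related and epithelial lists and the reference genes Sox17, Pax8, Cdh1 and Krt8 were chosen with earlier results of these data known. Genes most alike were named by rule, as the 10 with the highest correlation.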

Additional observations from a re-analysis of the deposited data

Results flagged for a closer look

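Barcodes below 1000 detected genes were used in no comparison. Among 15606 of them, 26 had a UMI of 3 or more of the 9 genes (4 and 6 in the control libraries, 7 and 9 in the Sox17-cKO libraries), and 3 had 5 or more. This is a signal in data outside the main measurement, and it was seen in libraries of both genotypes.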

How the results depend on the processing

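Rmst, 1500015O10Rik, Plscr2, Plet1, Slc34a2 and Bcam passed the threshold in RT-like cells under none of the 15 alternatives. In the ranges that follow 1 library was left out at a time and the lone library of its genotype is assumed to vary like the others. The number of genes past the threshold in RT-like cells, 4, was 31 (without control 2) to 106 (without Sox17-cKO 1) in this way, 97 with no filter on low counts, 17 with DESeq2, 15 below 10% mitochondrial UMIs, 8 without the highest doublet scores, 9 with the members among the variable features and 22 with the marker gate and no upper limit on genes. Chosen after seeing the data, the gate above 4500 genes gave 12 and, kept to barcodes with few germ or stromal UMIs (under 5 and under 10), 27. From 0 in the other classes it went to 0 to 2 in all Sertoli-like (SV and tubule together), 0 to 5 in SV Sertoli-like, 0 to 17 in interstitial-like, 0 to 6 in germ-like and 2 to 18 in endothelial-like cells, and with no filter to 2 in SV Sertoli-like, 14 in interstitial-like, 3 in germ-like and 10 in endothelial-like cells. DESeq2 gave 1 in interstitial-like cells.

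Same-numbered libraries deviated together (r = 0.348 over 6774 genes in RT-like cells), and share a version of Cell Ranger, but the labels do not tie a number to a shared batch. The replicate block gave 267 calls in RT-like cells and 2 in germ-like cells. With it the log2 fold changes in RT-like cells were -1.30 for Podxl (adjusted p = 1.13e-06), 1.48 for Mia (8.19e-08), 0.85 for Cnmd (0.0105) and -0.015 for Plet1 by edgeR, and that of Bcam in all Sertoli-like cells was 0.0095. It changed no other call of a member.

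Without 1 library at a time the log2 fold changes in RT-like cells ran from -1.72 to -1.03 for Podxl, 0.31 to 2.20 for Mia, 0.61 to 1.15 for Cnmd, -0.49 to 1.14 for Slc34a2, -0.22 to 0.35 for Plet1, -0.24 to 0.38 for Plscr2 and -0.40 to 1.17 for Bcam. In other classes they ran from -0.036 to 1.09 for 1500015O10Rik, -1.05 to 1.33 for Bcam and -0.39 to 0.88 for Rmst in all Sertoli-like cells, from -0.99 to 1.49 for Bcam in SV Sertoli-like cells, from -0.19 to 0.67 for 1500015O10Rik, -0.090 to 0.67 for Bcam, -0.32 to 0.11 for Rmst, -0.47 to 0.36 for Cnmd and -0.30 to 0.28 for Plscr2 in interstitial-like cells, from -0.22 to 0.52 for Podxl, -0.83 to 2.20 for Bcam and -0.42 to 0.29 for Rmst in germ-like cells, and from -2.29 to 1.08 for Bcam in endothelial-like cells. With no filter on low counts Podxl was at -1.27 and Mia at 1.52.

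Slc34a2 fell below 0 below 10% mitochondrial UMIs (-0.063), without the highest doublet scores (-0.085), with the marker gate (-0.30), with the gate above 4500 genes (-0.38) and in its barcodes with few germ or stromal UMIs (-0.076). Plscr2 did so with these 3 gates (-0.027, -0.16 and -0.21), and Plet1 below 10% mitochondrial UMIs (-0.10), without the highest doublet scores (-0.11), without integration (-0.029) and with the members among the variable features (-0.0052). The cause of these changes was not tested. Without integration, or with the members among the variable features, no SV Sertoli-like cluster formed, so these settings give no level there.

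With the marker gate the mean levels were 559 CPM for Rmst, 2162 CPM for 1500015O10Rik, 225 CPM for Plscr2 and 135 CPM for Plet1, and the shares of thinned cells 56.6%, 75.5% and 32.6% for Rmst, 1500015O10Rik and Plscr2. The share for 1500015O10Rik was 96.9% below 10% mitochondrial UMIs, and that for Podxl 38.7% with the members among the variable features. The RT-like cluster of the latter setting held 36, 73, 33 and 85 cells, close to the main one. Thinning is random and was drawn anew for the alternatives, and the part of the draw in these shares was not tested. Without thinning, which raises the depth by construction, shares were 92.2% for Rmst, 85.3% for Plscr2, 59.8% for Mia, 68.4% for Cnmd, 76.9% for Podxl, 58.1% for Plet1, 54.3% for Slc34a2 and 79.4% for Bcam. In simulated data the test called 11.2% of 2-fold changes in RT-like cells. It called 12.5%, 10.4% and 10.5% in all Sertoli-like, interstitial-like and germ-like cells, which are far more numerous. Most 2-fold changes were thus below what the test could call in each of these classes.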
